A study of Homo sapiens with 6 samples.

Results

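The 33 genes described here encode the glucose carriers, the enzymes that split glucose to pyruvate, the lactate and pyruvate dehydrogenase steps and the pentose phosphate enzymes of human cells. They were chosen by symbol from this pathway, and all 33 were found among the 63086 Ensembl genes of the deposited count table. The libraries came from HEK293T, an established human embryonic kidney line that carries the SV40 large T antigen. In 100Q, 3 libraries came from cells given queuine, and in 0Q, 3 came from cells kept without it. Both groups grew in DMEM with 10% dialyzed serum, and the 100Q cells were derived from the 0Q cells, so depletion is shared history of both groups. The labels give the queuine dose as 100 nM in one field and as 1 µM for 24 hours in another, and that difference was not settled here. The study grew one line in triplicate, and the labels do not say that the triplicates were separate cultures, so each p here speaks only of the differences among these 6 libraries, which may be technical.

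Glucose enters through SLC2A carriers and is phosphorylated by hexokinase, and phosphofructokinase then commits it to breakdown. The lower enzymes, from GAPDH to pyruvate kinase, yield ATP and pyruvate. Pyruvate is turned into lactate by lactate dehydrogenase and exported by monocarboxylate carriers, or enters mitochondria through pyruvate dehydrogenase. The pentose phosphate enzymes draw hexose phosphate off to make ribose and NADPH. Proliferating lines such as HEK293T depend on this pathway, and many of its genes are known targets of the hypoxia factor HIF1. Queuine is built into certain tRNAs as queuosine, at the base that reads codons ending in C or U, and these tRNAs carry tyrosine, histidine, asparagine or aspartate.

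Library totals were 4023956 to 11398835 estimated counts in 100Q and 7264638 to 8035251 in 0Q. Levels are CPM, counts scaled to a common library total with TMM factors, and a level per kilobase divides CPM by the annotated exon length. The first principal component took 32.4% of the variance and set 100Q replicate 2 apart from the other 5 libraries, and the second took 20.8% and set 100Q replicate 1 apart, without separating the groups. Genes that HEK293T is known to express were present, among them the intermediate filament genes VIM at 710 ± 35.3 CPM in 100Q against 757 ± 24.2 CPM in 0Q and NEFM at 168 ± 22.3 CPM in 100Q, against 187 ± 10.8 CPM in 0Q (SD, n = 3 libraries in each group). The embryonic kidney factor PAX2 was low, at 5.27 to 7.89 CPM in 100Q, against 1.72 to 7.80 CPM in 0Q. The blood markers PTPRC and CD3E had 0 counts in all 6 libraries, ALB, DES and PECAM1 stayed at or below 1.35 CPM, and COL1A1, listed as a fibroblast marker, was at 29.9 ± 1.51 CPM in 100Q against 27.9 ± 2.36 CPM in 0Q. In bulk RNA, fewer cells that express a gene and less RNA per cell cannot be told apart.

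None of the glycolysis or pentose phosphate genes passed the test between 100Q and 0Q. Of the 33 genes, 32 had enough counts to test, and 0 passed at a Benjamini-Hochberg adjusted p under 0.05 with edgeR's quasi-likelihood test, with DESeq2 or with limma-voom. Few genes passed at all, with 0.0134% of all 14905 genes tested with edgeR, 0.0738% with DESeq2 and 0.00671% with limma-voom. At an unadjusted p under 0.05 with edgeR there were 2 members, SLC2A1 and PDK1, both with lower values in 100Q. PFKL, with higher values in 100Q, had an unadjusted p of 0.0633 with edgeR and 0.0496 with DESeq2. Of all tested genes 4.72% passed that threshold, 2.23% with lower and 2.49% with higher values in 100Q. Over the 32 genes the smallest adjusted p was 0.987 and the largest 0.9998 with edgeR.

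The estimates were small. Log2 fold changes, 100Q minus 0Q, ran from -0.41 in SLC2A3 to 0.22 in PFKL, with a median SE of 0.096. The 95% interval lay within a 1.5-fold change in either direction for 29 of the 32 tested genes, and within a 2-fold change for all 32. The 3 genes with wider intervals were SLC2A1, SLC2A3 and ENO3. Estimates were negative for 22 of 32 genes, 68.8%, against 50.6% of all tested genes, and their median was -0.050 against -0.0027. That count and median moved with single libraries. Without 0Q replicate 1 there were 17 negative estimates and a median of -0.013, without 100Q replicate 3 there were 16 and -0.0037, and without 0Q replicate 3 there were 26 and -0.11. Without 100Q replicate 1 or 100Q replicate 2 the median was -0.085 or -0.081.

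**Figure D1:**
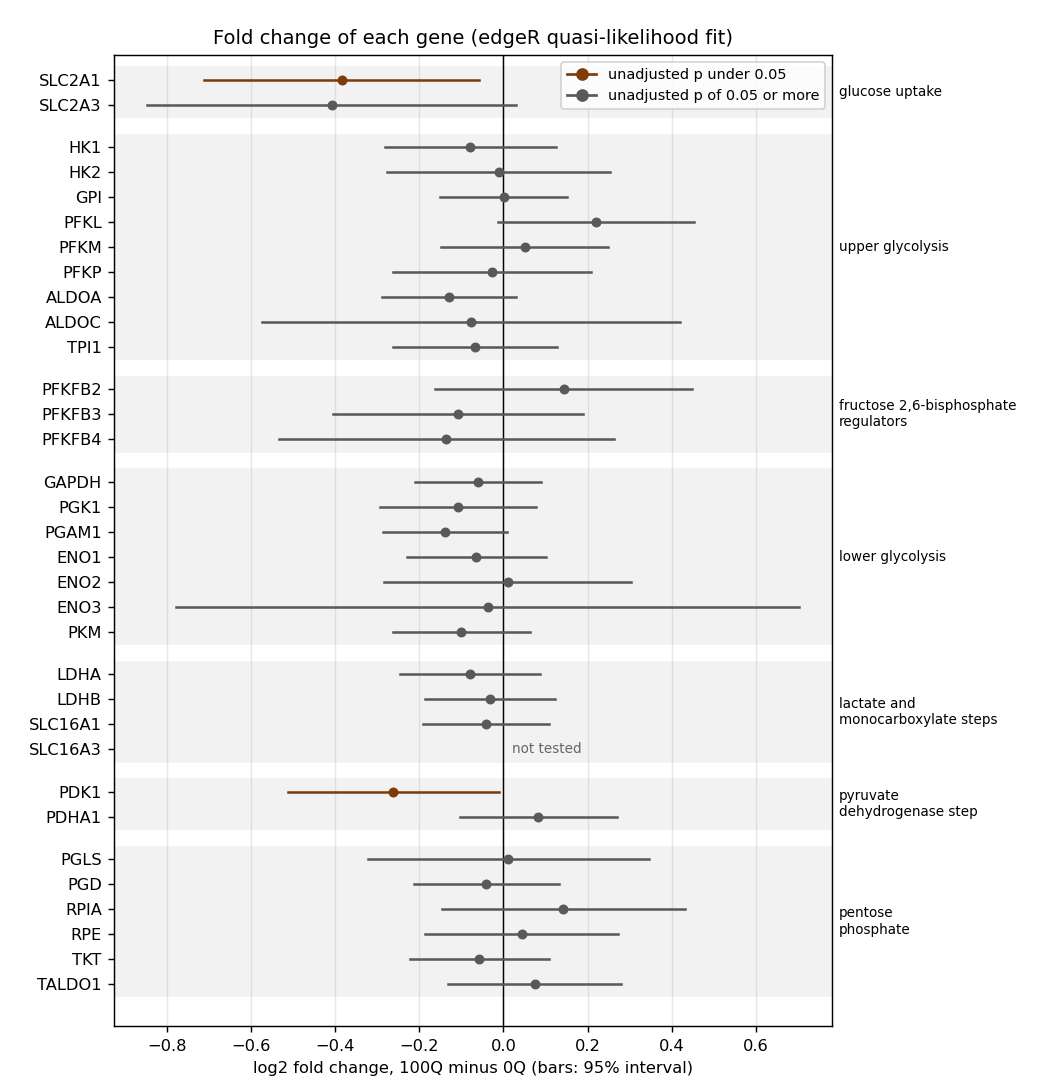
Log2 fold change (100Q minus 0Q, horizontal axis) of each gene, grouped by pathway step, as a point with its 95% interval from the edgeR quasi-likelihood fit over all genes. The intervals of SLC2A1 and PDK1 lie below 0, those of the other 30 tested genes include 0, and SLC16A3 had too few counts to test.

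Glucose uptake had the lowest estimates of any step. SLC2A1 (ENSG00000117394, chromosome 1, 42925353 to 42958893 in hg38) encodes GLUT1, the basal glucose carrier of most proliferating cells, and had 43.5, 27.4 and 34.8 CPM in the 100Q libraries, in order of replicate number, against 41.9, 49.3 and 47.4 CPM in the 0Q libraries. The groups overlapped, since 100Q replicate 1 lay above 0Q replicate 1, and 100Q replicate 2 was the lowest of the 6. For SLC2A1 the fitted log2 fold change was -0.39 ± 0.15 (SE, 95% interval -0.71 to -0.058; edgeR quasi-likelihood, unadjusted p = 0.0239, Benjamini-Hochberg adjusted p = 0.987). The unadjusted p was 0.0552 to 0.0925 without 0Q replicate 2, 0Q replicate 3, 100Q replicate 2 or 100Q replicate 3 (edgeR quasi-likelihood). It was 0.0221 without 0Q replicate 1 and 0.00339 without 100Q replicate 1 (edgeR quasi-likelihood). Over the other settings it ran from 0.0053 (edgeR, no filter on low counts) to 0.0326 (edgeR, library size only). The estimate was -0.26 without 100Q replicate 2, the shallowest library, and -0.55 without 100Q replicate 1, and the adjusted p stayed between 0.581 and 0.9999 over all alternatives.

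SLC2A3 (ENSG00000059804, chromosome 12, 7919230 to 8019007) encodes GLUT3, a carrier of higher glucose affinity best known from neurons. It had 13.9, 9.79 and 13.3 CPM in 100Q, against 16.1, 18.5 and 15.1 CPM in 0Q. All 3 libraries of 100Q lay below those of 0Q, which held for 5.2% of all tested genes. SLC2A3 had a log2 fold change of -0.41 ± 0.21 (SE, with an adjusted p of 0.987 from edgeR after Benjamini-Hochberg). Its value is uncertain, because its 3 named pseudogenes held 27.4% of the counts of gene and pseudogenes together, and the near-identical SLC2A14 was at 0.229 CPM in 100Q against 0.305 CPM in 0Q. The 2 carriers together summed to 57.4, 37.2 and 48.1 CPM in 100Q, against 57.9, 67.8 and 62.5 CPM in 0Q, and the nearest pair was replicate 1 of each group.

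The start region of SLC2A1 is shown because HIF1 is known to bind the core ACGTG or GCGTG in the control regions of glycolytic genes. The sequence is from RefSeq (GRCh38.p14, chr1:42958819-42959118, minus strand) and runs 250 bases before to 50 after the start that RefSeq gives. Matches of either core on either strand are in capitals.
SLC2A1: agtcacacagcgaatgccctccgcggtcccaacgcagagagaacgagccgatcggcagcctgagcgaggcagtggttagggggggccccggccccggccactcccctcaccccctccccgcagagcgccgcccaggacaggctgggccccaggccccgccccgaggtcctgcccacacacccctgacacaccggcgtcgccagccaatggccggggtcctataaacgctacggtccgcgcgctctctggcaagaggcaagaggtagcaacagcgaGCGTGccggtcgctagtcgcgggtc
This window held 1 GCGTG and no ACGTG. A start region was at hand for 30 of the 33 genes, with a single RefSeq start taken for each. These starts are not all the outermost start that GENCODE gives. The PGAM1 window was 97427568 to 97427867 against a gene start of 97426191, and the GPI window 34364742 to 34365041 against 34359480. ACGTG, counting both strands and including the E-box CACGTG that contains it, stood in 9 of the 30, 30.0%, against 26.7% of the 10908 start regions of tested genes. GCGTG stood in 15 of the 30, against 51.8% of the start regions of tested genes. These are matches of letters within a short window, and no binding was measured.

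In upper glycolysis, the estimates fell on both sides of 0, with 6 of 9 negative and a median of -0.027. Leaving out 0Q replicate 1 gave a median of 0.028, leaving out 100Q replicate 3 gave 0.014, and leaving out 0Q replicate 3 gave -0.094. PFKL (ENSG00000141959, chromosome 21, 44300051 to 44327376) encodes the liver-type phosphofructokinase and had the highest estimate of the 32 genes. It was at 197, 225 and 169 CPM in 100Q, against 181, 178 and 145 CPM in 0Q. The groups overlapped at 100Q replicate 3, which lay below 0Q replicates 1 and 2. PFKL had a log2 fold change of 0.22 ± 0.11 (SE, with an adjusted p of 0.987 from edgeR after Benjamini-Hochberg). It was 0.12 without 0Q replicate 3 or without 100Q replicate 2 and 0.33 without 100Q replicate 3. Over the alternative settings its unadjusted p ran from 0.0134 (edgeR, replicate block) to 0.0901 (limma-voom), with 0.0394 for library size only (edgeR). In edgeR fits without single libraries it ran from 0.0098 to 0.307. The muscle-type PFKM had 0.05 ± 0.09 and the platelet-type PFKP -0.03 ± 0.11 (SE). PFKM shares 516 exon bases with SENP1 on the other strand, and SENP1 held 1984 counts against 4039 for PFKM. As the strand setting was not stated, part of the PFKM counts could belong to SENP1.

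Hexokinase traps glucose in the cell, and neither of its genes stood apart. HK1, the housekeeping form, had 168, 171 and 140 CPM in 100Q, against 183, 164 and 156 CPM in 0Q. HK2, the inducible form, had 111, 88.1 and 76.9 CPM in 100Q, against 94.1, 99.0 and 83.3 CPM in 0Q. Their log2 fold changes were -0.08 ± 0.10 and -0.01 ± 0.12 (SE). The spread of HK2 within 100Q was wider than the distance between the group means of 92.0 CPM in 100Q against 92.1 CPM in 0Q. GPI, which converts glucose 6-phosphate to fructose 6-phosphate, was the steadiest gene of the set in 100Q, with 436, 438 and 435 CPM, against 458, 417 and 434 CPM in 0Q (log2 fold change 0.00050 ± 0.071, SE).

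The aldolases and triose phosphate isomerase complete the upper part. ALDOA, the main aldolase of the line, had 830, 756 and 732 CPM in 100Q, against 868, 866 and 800 CPM in 0Q. Only 100Q replicate 1 reached into the range of 0Q, and the log2 fold change was -0.13 ± 0.07 (SE). ALDOA shares 42.8% of its exon bases with ENSG00000285043, a protein-coding gene on the same strand that held 589 counts over the 6 libraries, against 35008 for ALDOA. The brain-type ALDOC, at 12.7 ± 0.911 CPM in 100Q against 13.5 ± 3.63 CPM in 0Q (SD, n = 3 libraries in each group), had -0.08 ± 0.23, and TPI1, the isomerase, had -0.07 ± 0.09 (SE).

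The PFKFB enzymes set the level of fructose 2,6-bisphosphate, the activator of phosphofructokinase. PFKFB3, the form with high kinase activity, was the most abundant per kilobase and had 69.5, 55.5 and 67.4 CPM in 100Q, against 83.9, 55.9 and 69.0 CPM in 0Q. The groups overlapped, and 0Q replicate 1 was the highest of the 6. Its log2 fold change of -0.11 ± 0.14 (SE) was 0.05 without 0Q replicate 1. PFKFB4 had -0.14 ± 0.19 and PFKFB2 0.14 ± 0.14 (SE), so this step held estimates of both signs, each with a 95% interval that included 0. PFKFB2 shares 315 exon bases with YOD1 on the other strand, and YOD1 held 3200 counts against 1180 for PFKFB2. Without strand information in the sources used here, part of the PFKFB2 counts could belong to YOD1.

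Lower glycolysis had 6 of 7 estimates below 0, all small, with a median of -0.064. Leaving out 100Q replicate 3 gave a median of -0.011, with -0.010 for GAPDH, -0.011 for ENO1 and -0.033 for PGK1. The median was -0.14 or -0.11 when 100Q replicate 1 or 2 was left out, and -0.13 when 0Q replicate 3 was. PGAM1 (ENSG00000171314, chromosome 10, 97426191 to 97433444), the phosphoglycerate mutase of most tissues, had the lowest. It was at 599, 591 and 605 CPM in 100Q, against 682, 666 and 629 CPM in 0Q. Every 100Q library lay below every 0Q library, with an SD of 6.98 CPM in 100Q and 27.1 CPM in 0Q. PGAM1 had a log2 fold change of -0.14 ± 0.07 (SE, 95% interval -0.29 to 0.0091, with an adjusted p of 0.987 from edgeR after Benjamini-Hochberg). It ran from -0.17 to -0.11 when each library was left out in turn.

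GAPDH, which oxidises glyceraldehyde 3-phosphate and often serves as a loading control, had the highest level per kilobase of all members with each of the 3 gene lengths used. It had 1861, 1905 and 1693 CPM in 100Q, against 1935, 1902 and 1854 CPM in 0Q. Apart from 100Q replicate 3 all libraries lay between 1854 and 1935 CPM, and the log2 fold change was -0.06 ± 0.07 (SE; 95% interval -0.21 to 0.090). PGK1, which makes the first ATP of the pathway, had 505, 452 and 408 CPM in 100Q, against 464, 531 and 474 CPM in 0Q (-0.11 ± 0.09, SE). PKM, whose product pyruvate kinase makes pyruvate, had 1107, 1054 and 985 CPM in 100Q, against 1213, 1087 and 1070 CPM in 0Q (-0.10 ± 0.08, SE). In both genes 100Q replicate 1 alone fell inside the range of 0Q, and 100Q replicate 3 was the lowest of the 6.

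The enolases spanned a wide range of levels. ENO1, the form found in most tissues, was at 303 ± 19.7 CPM per kilobase in 100Q and 317 ± 23.6 in 0Q, the neuronal ENO2 at 12.1 ± 2.24 in 100Q and 11.9 ± 0.809 in 0Q, and the muscle ENO3 at 1.73 ± 0.590 in 100Q and 1.74 ± 0.317 in 0Q (SD, n = 3 libraries in each group). Their log2 fold changes were -0.06 ± 0.08, 0.01 ± 0.14 and -0.04 ± 0.35 (SE). ENO3 overlaps the exons of PFN1 on the other strand by 111 bases, and PFN1 held 28460 counts against 304 for ENO3. Without strand information in the sources used here, part of the ENO3 counts could belong to PFN1.

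**Figure D2:**
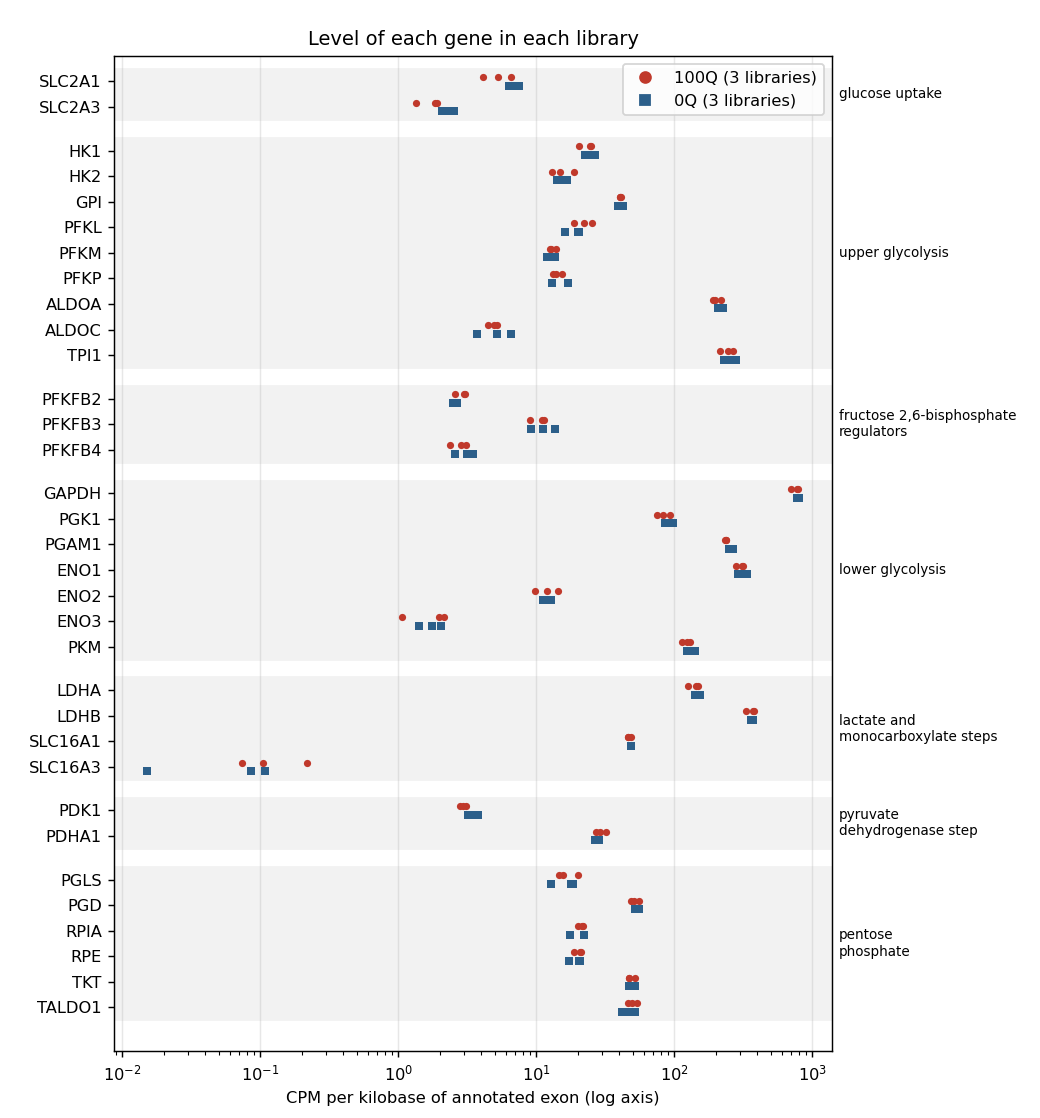
Level of each gene in each library as CPM per kilobase of annotated exon (log axis), with 100Q as circles above 0Q as squares in each row. Levels span from 0.101 in SLC16A3 to 776 in GAPDH as means of 6 libraries, and the ranges of the groups overlap in all rows but SLC2A3, PGAM1 and PDK1.

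The lactate step had the narrowest range of estimates among the steps with more than 2 tested genes, -0.08 to -0.03. LDHA, which favours lactate formation and is a known HIF1 target, had 903, 860 and 762 CPM in 100Q, against 888, 925 and 852 CPM in 0Q. LDHB, which favours pyruvate formation and shares 33.4% of its exon bases with ENSG00000285854 on the same strand, a gene with 12.2 counts, had 1104, 1128 and 990 CPM in 100Q, against 1078, 1113 and 1103 CPM in 0Q. In both genes 100Q replicate 3 was the lowest library and the other 5 intermingled. The log2 fold changes were -0.08 ± 0.08 for LDHA and -0.03 ± 0.07 for LDHB (SE), and their 95% intervals, -0.25 to 0.087 and -0.19 to 0.12, lie within a 1.5-fold change. LDHB was at 360 ± 24.7 CPM per kilobase in 100Q and 368 ± 6.12 in 0Q, above LDHA at 140 ± 12.0 in 100Q and 147 ± 6.04 in 0Q (SD, n = 3 libraries in each group).

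The start regions of this isozyme pair are printed because they differ in these cores, and neither transcript passed the test. Both are from RefSeq (GRCh38.p14; LDHA chr11:18394313-18394612, plus strand; LDHB chr12:21657793-21658092, minus strand), with the cores ACGTG and GCGTG on either strand in capitals.
LDHA: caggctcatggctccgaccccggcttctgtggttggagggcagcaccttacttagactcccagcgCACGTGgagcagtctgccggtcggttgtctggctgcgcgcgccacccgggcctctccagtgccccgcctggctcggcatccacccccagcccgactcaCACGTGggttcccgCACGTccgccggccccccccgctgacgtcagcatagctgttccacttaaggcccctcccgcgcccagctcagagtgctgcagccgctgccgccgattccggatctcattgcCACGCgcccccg
LDHB: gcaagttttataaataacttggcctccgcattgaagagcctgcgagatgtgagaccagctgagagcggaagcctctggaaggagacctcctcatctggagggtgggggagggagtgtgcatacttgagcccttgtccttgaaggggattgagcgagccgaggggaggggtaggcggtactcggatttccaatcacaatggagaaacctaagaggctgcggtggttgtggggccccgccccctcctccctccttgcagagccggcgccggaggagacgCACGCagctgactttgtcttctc
LDHA held ACGTG at 3 places, 2 of them within the E-box CACGTG, and GCGTG at 1. LDHB held no ACGTG and 1 GCGTG. PGK1 also held ACGTG at 3 places, and GAPDH, ALDOA, ALDOC, ENO2, GPI, HK2 and PGD held it too.

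SLC16A1 encodes MCT1, the carrier for lactate and pyruvate of most cells. It had 295, 292 and 309 CPM in 100Q, against 309, 307 and 307 CPM in 0Q, with the 0Q libraries within 3 CPM of each other. The log2 fold change was -0.04 ± 0.07 (SE). SLC16A3, which encodes the lactate exporter MCT4 of strongly glycolytic cells, was close to absent, with 5, 8 and 8 estimated counts in 100Q and 1, 8.37 and 6 in 0Q, and was not tested. It overlaps CSNK1D on the other strand, which held 9771 counts, so even these few counts are uncertain.

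At the entry of pyruvate into mitochondria, PDK1 (ENSG00000152256, chromosome 2, 172555373 to 172608669) encodes a kinase of the family that inhibits pyruvate dehydrogenase. PDK1 is also a known HIF1 target. It had 45.8, 43.7 and 41.9 CPM in 100Q, against 53.6, 56.0 and 47.6 CPM in 0Q. All 3 libraries of 100Q lay below those of 0Q, with 100Q replicate 1 and 0Q replicate 3 the nearest pair. PDK1 had a log2 fold change of -0.26 ± 0.12 (SE, 95% interval -0.51 to -0.011, edgeR unadjusted p = 0.0415, Benjamini-Hochberg adjusted p = 0.987). It ran from -0.33 to -0.21 when each library was left out, with an unadjusted edgeR p of 0.0235 to 0.150, and DESeq2 gave an unadjusted p of 0.0665. PDHA1, the catalytic subunit that this kinase phosphorylates, had 159, 144 and 134 CPM in 100Q, against 139, 140 and 132 CPM in 0Q. Its groups overlapped, with a log2 fold change of 0.08 ± 0.09 (SE), and 19.3% of its exon bases overlap MAP3K15 on the other strand. PDK1, SLC2A3 and PGAM1 were the 3 genes whose groups did not overlap, all with 100Q below. Over all tested genes 10.6% had groups that did not overlap, 5.2% with 100Q below and 5.39% with 100Q above.

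The pentose phosphate genes had 4 of 6 estimates above 0, a median of 0.027, and no 95% interval that left out 0. Leaving out 0Q replicate 3 gave a median of -0.033, and leaving out 0Q replicate 2 gave 0.077. With 100Q replicate 2 or 3 left out it was 0.0035 or 0.10, and limma-voom gave 0.00040. In the oxidative branch, PGLS, the lactonase, had 0.01 ± 0.16 and PGD, the 6-phosphogluconate dehydrogenase that releases NADPH, -0.04 ± 0.08 (SE). RPIA, which isomerises ribose 5-phosphate, had 39.5, 38.7 and 36.6 CPM in 100Q, against 39.9, 32.1 and 31.7 CPM in 0Q. It had the highest estimate of the 6 genes, 0.14 ± 0.14 (SE), and 0Q replicate 1 lay above all 3 libraries of 100Q. RPE, the ribulose phosphate epimerase, had 0.04 ± 0.11 (SE), and 23.8% of its exon bases overlap KANSL1L on the other strand. Transketolase and transaldolase carry sugar units back to glycolysis, and their genes TKT and TALDO1 had -0.06 ± 0.08 and 0.07 ± 0.10 (SE). TKT, at 461 ± 30.3 CPM in 100Q against 479 ± 29.0 CPM in 0Q (SD, n = 3 libraries in each group), had a level per kilobase that depended on the gene length used, at 49.5 with the union of exons, 64.5 with the longest transcript and 157 with the MANE transcript (CPM per kilobase, means of 6 libraries).

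Summed over all 33 genes, the pathway took 12010, 11920 and 10830 CPM in 100Q, against 12550, 12190 and 11540 CPM in 0Q. The groups overlapped, and the means differed by -4.19%, which was less than the range within either group. Summed lower glycolysis was 5560 ± 314 CPM in 100Q against 5878 ± 262 CPM in 0Q, summed upper glycolysis 2528 ± 163 CPM in 100Q against 2609 ± 170 CPM in 0Q, and summed pentose phosphate genes 935 ± 46.4 CPM in 100Q against 944 ± 53.9 CPM in 0Q (SD, n = 3 libraries in each group). Glucose uptake, a sum of 2 genes, was the 1 step whose sums did not overlap between groups. The margin was narrow, with 57.4 CPM in 100Q replicate 1 against 57.9 CPM in 0Q replicate 1. Of single tested genes, 10.6% had groups that did not overlap.

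**Figure D3:**
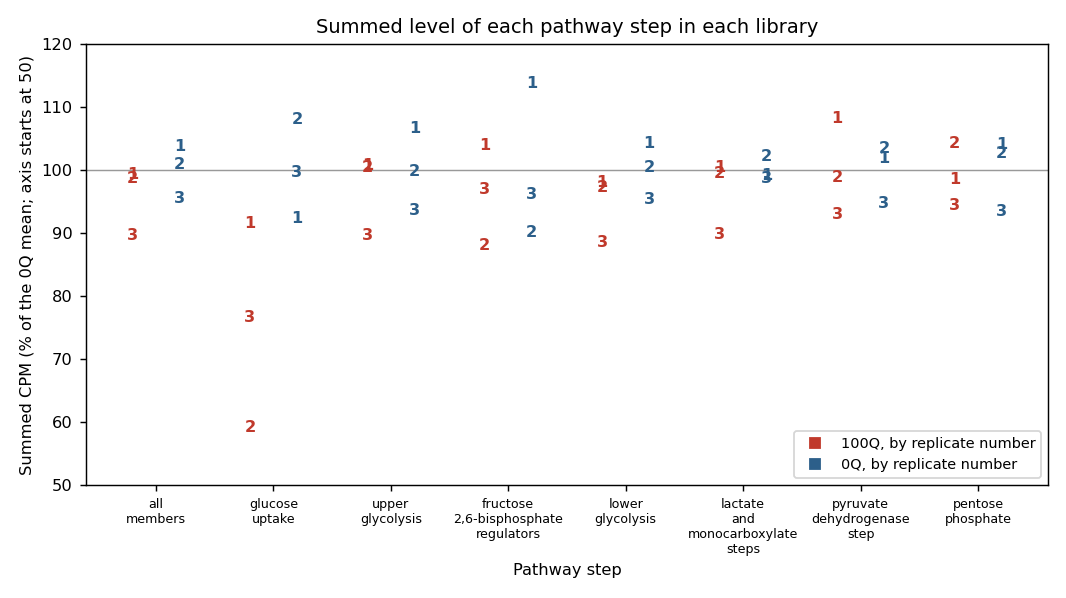
Summed CPM of each step (vertical axis, percent of the 0Q mean, starting at 50) for each library, plotted as its replicate number, 100Q to the left of 0Q. 100Q replicate 3 is the lowest library for all genes together, for upper and lower glycolysis and for the lactate step. Only the glucose uptake sums of 100Q lie wholly below those of 0Q, with replicate 1 of each group nearly level.

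Part of the spread ran across libraries of both groups. 0Q replicate 1 was the highest of the 6 libraries for 14 of the 32 tested genes, which held for 16.7% of the 10585 genes that averaged 10 CPM or more. 100Q replicate 3 was the lowest for 13 and the highest for 0, against 14.3% and 12.7% of all genes. 0Q replicate 3 was the lowest for 9 and the highest for 0, against 16.8% and 17.6% of all genes. The median centred level over the tested genes, on the log2(CPM + 1) scale, was 0.041, 0.012 and -0.098 in the 100Q libraries, against 0.10, 0.038 and -0.065 in those of 0Q, both in order of replicate number. Each group thus held 1 library at the low end, its replicate 3. The median fold change without each library is given above.

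**Figure D4:**
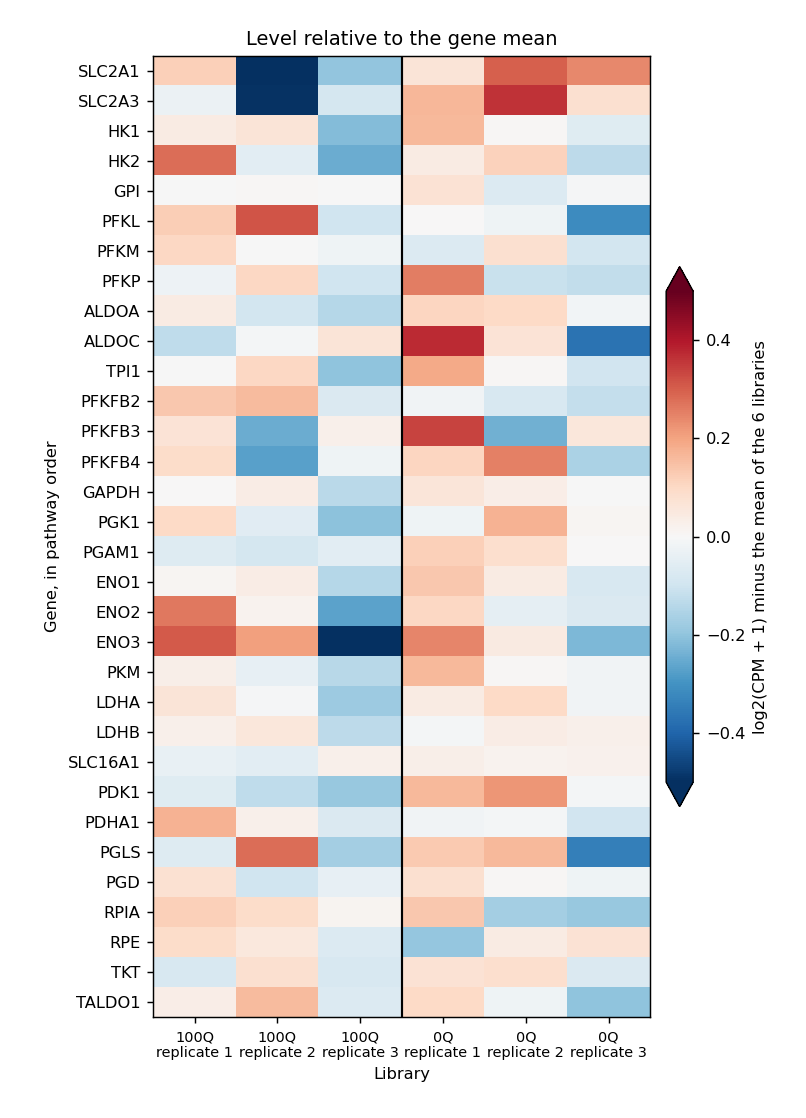
Level of each of the 32 tested genes relative to its own mean, as log2(CPM + 1) (colour; values beyond 0.5 in size share the end colours), with the 100Q libraries left of the line and the 0Q libraries right of it. The columns of 100Q replicate 3 and 0Q replicate 3 are mostly blue and that of 0Q replicate 1 mostly red, and the rows of SLC2A1 and SLC2A3 are darkest in 100Q replicate 2.

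The balance of isozymes, taken as shares of a family's summed level per kilobase of exon, overlapped between groups in all 8 families. SLC2A1 made up 75.7 ± 1.70% of the 2 carriers in 100Q and 75.4 ± 1.88% in 0Q (SD, n = 3 libraries in each group). Their summed level averaged 47.5 ± 10.1 CPM in 100Q, against 62.7 ± 4.94 CPM in 0Q. LDHA made up 27.9 ± 0.774% of lactate dehydrogenase in 100Q and 28.6 ± 0.814% in 0Q. HK1 made up 60.0 ± 3.10% of hexokinase in 100Q and 61.0 ± 2.03% in 0Q. ALDOA held 97.6 ± 0.310% of aldolase in 100Q and 97.7 ± 0.518% in 0Q, and ENO1 95.7 ± 0.646% of enolase in 100Q and 95.9 ± 0.107% in 0Q.

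Among these shares PFKL had the widest distance between group means, 3.57 percentage points. PFKL made up 44.3, 47.3 and 42.2% of the 3 genes in 100Q and 40.9, 42.7 and 39.4% in 0Q. The groups overlapped, since 100Q replicate 3 lay below 0Q replicate 2. The order of the phosphofructokinases depends on the length used. PFKL led at 42.8% with the union of exons and at 46.3% with the MANE transcript, the agreed representative transcript, but PFKP led at 37.6% with the longest transcript (means of 6 libraries). The order of LDHB over LDHA, HK1 over HK2 and SLC2A1 over SLC2A3 was the same with all 3 lengths.

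**Figure D5:**
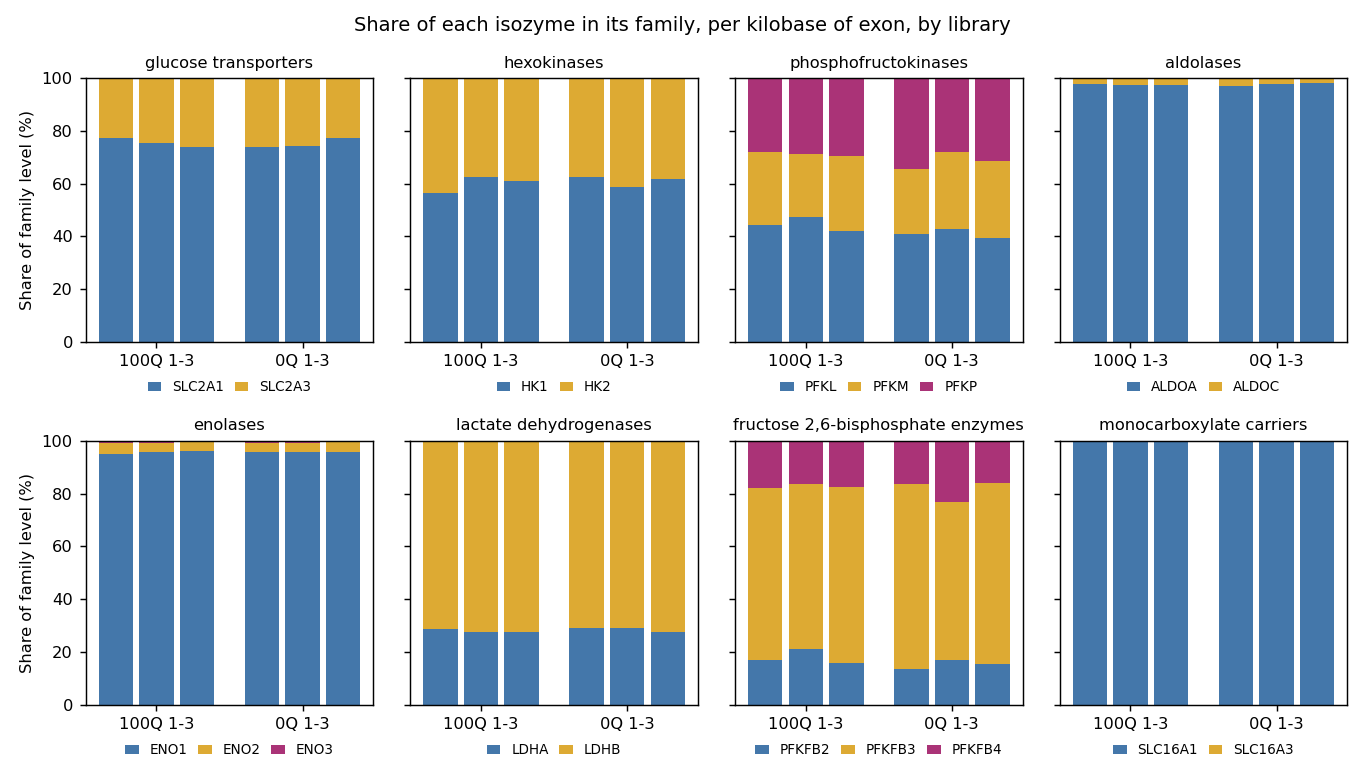
Share of each isozyme (vertical axis, percent of the family's summed CPM per kilobase of exon) in the 3 libraries of 100Q and the 3 of 0Q for 8 families. The bars of the 2 groups look alike in each family, and aldolase, enolase and the monocarboxylate carriers are each almost wholly 1 gene.

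The coding sequences of the members vary in the codons that queuosine tRNAs read. Codons for tyrosine, histidine, asparagine and aspartate made up a median of 14.3% of their codons (range 7.86% in SLC2A3 to 17.4% in PDK1 and PFKFB2), against 13.8% over 12748 tested protein-coding genes. Of these codons, a median of 57.8% ended in C, against 55.6%. Isozymes with nearly equal numbers of such codons used different endings. PFKL, PFKM and PFKP each had 105, of which 82.9%, 55.2% and 73.3% ended in C, and LDHA with 48 and LDHB with 50 had 37.5% and 26.0%. SLC16A3 was highest at 95.1%. Over the 32 tested members the Spearman correlation of the C-ending share with the log2 fold change was 0.21, against 0.14 over the 12748 genes. For the share of all such codons it was 0.092 in the members, against -0.091 over the 12748 genes. For the GC percent of the transcript it was -0.025 in the members, against 0.18 over the 12748 genes. Whether codon endings or base composition go with the fold change was not tested. These correlations are given as descriptions, since all genes share the 6 libraries.

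Further genes of sugar metabolism were read from the same fit. Of 92 genes in 9 lists, 68 were tested, and 0 passed with edgeR, DESeq2 or limma-voom. At an unadjusted p under 0.05 with edgeR there were 2, 1 in each direction, and 35 of 68 estimates were negative, with a median of -0.013. In 3 of the 68 all libraries of 100Q lay below those of 0Q (SLC2A4, PGM2 and MPC1), and in 3 they lay above (OGA, PDP2 and MLXIP), against 5.2% and 5.39% of all tested genes. MPC1 and PDP2 were named after their values were seen. OGA, which removes O-linked N-acetylglucosamine from proteins, was at 184 CPM in 100Q against 157 CPM in 0Q with a log2 fold change of 0.22 ± 0.10 (SE), and PGM2, a phosphopentomutase, was at 36.7 CPM in 100Q against 44.3 CPM in 0Q with -0.27 ± 0.12. In the hexosamine and serine branches, GNPNAT1, which acetylates glucosamine 6-phosphate, had -0.19 ± 0.10, and among the glycogen and sugar interconversion genes PGM2L1 had -0.22 ± 0.19 (SE).

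Among other sugar transporters, the insulin-responsive carrier SLC2A4 was at 8.48 CPM in 100Q against 12.2 CPM in 0Q (log2 fold change -0.52 ± 0.25, SE), and SLC2A11 had -0.29 ± 0.22. Of the 8 tested genes of that list, 5 had positive estimates. In the pyruvate dehydrogenase list, the phosphatase subunit PDPR had 0.19 ± 0.12 and the kinase PDK2 0.18 ± 0.14, while 9 of the 13 tested genes of that list had negative estimates. MPC1, a subunit of the mitochondrial pyruvate carrier, had -0.11 ± 0.12, and PDP2, a phosphatase that reverses the action of the kinases, 0.11 ± 0.13 (SE). Among the monocarboxylate carriers and their partners, BSG, the chaperone of MCT1, had -0.04 ± 0.07 and SLC16A7 -0.12 ± 0.49 (SE).

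TIGAR, which lowers fructose 2,6-bisphosphate, had 0.34 ± 0.25, and PGAM4, a retrocopy of PGAM1 whose reads may be shared with it, 0.78 ± 0.54 at 3.25 CPM in 100Q against 1.85 CPM in 0Q (SE of log2 fold changes). The ribose phosphate kinase PRPS2 had -0.22 ± 0.11 and DERA -0.22 ± 0.19, and the gluconeogenic PCK2 and G6PC3 had 0.17 ± 0.13 and 0.02 ± 0.11. Of the regulators, HIF1A had -0.12 ± 0.11 and MLXIP, a glucose-sensing factor, 0.13 ± 0.09 (SE), and 7 of the 9 regulators were positive. The tissue-restricted forms HK3, HKDC1, GAPDHS, PGK2, PGAM2, LDHAL6A and LDHAL6B were at 0 in every library.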

How the data were processed

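The deposited values are raw estimated counts for each Ensembl gene. FastQC, STAR and RSEM are named in the submitters' processing notes, without versions, and the series design names hg38. The notes also list mm39 and GRCm39. Annotation, strand setting and molecular identifiers were not stated in the sources used here, so intervals cover counting error and replicate spread of reads, not of molecules. Per the labels, libraries were made by MSR-seq from TRIzol total RNA.

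Estimated counts were rounded and fitted over 14905 genes with edgeR 4.0.16 (R 4.3.3; TMM, minimum count 10), the quasi-likelihood test and Benjamini-Hochberg adjustment at 0.05. Members, lists and alternatives were chosen with earlier results of these data known, and all 33 members are named; of each other list the 2 genes with the smallest p are named, besides genes at 0, a paralog, MPC1 and PDP2. Names, hg38 positions, exon lengths and codons came from GENCODE release 44, which matched 62541 of 63086 identifiers. Alternatives were RLE, library size only, no or a stricter filter (mean count 50), DESeq2 1.42.0, limma-voom (limma 3.58.1), the replicate number as a block, a correction for GC content and length, leaving out each library and other gene lengths, of which the MANE length was added after seeing the data. Within groups, any pair of libraries had a chi-square of 5.36 to 14.2 per degree of freedom, above sampling noise, so none was counted as a duplicate.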

Additional observations from a re-analysis of the deposited data

How the results depend on the processing

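No member passed under any of the 8 alternative settings or with any of the 6 libraries left out, where the smallest adjusted p was 0.581 (SLC2A1, edgeR with no filter on low counts, Benjamini-Hochberg), and no other carbohydrate gene passed. Of the 32 tested members, 19 kept their direction in every fit. The number of all genes called, 2 with edgeR, was 71 with no filter on low counts, 1 with the stricter filter, 11 with DESeq2, 1 with limma-voom and 4 after correcting for GC and length, against 0 to 6 without single libraries; the cause was not tested. The count of negative members was 21 to 24 over the other settings and 16 to 26 without single libraries, and their median -0.063 to -0.031 and -0.11 to -0.0037.

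Estimates near 0 changed sign. With library size only HK2 had 0.0065, with no filter GPI had -0.0086, with limma-voom ENO2 had -0.054 and PGLS -0.026, while correcting for GC and length gave -0.020 for GPI, 0.0036 for LDHB and -0.016 for PGLS. Without single libraries the ranges were -0.13 to 0.014 for HK1, -0.17 to 0.12 for HK2, -0.033 to 0.035 for GPI, -0.094 to 0.11 for PFKP, -0.26 to 0.12 for ALDOC, -0.14 to 0.014 for TPI1, -0.25 to 0.047 for PFKFB3, -0.14 to 0.16 for ENO2, -0.24 to 0.25 for ENO3, -0.071 to 0.024 for LDHB, -0.14 to 0.11 for PGLS, -0.037 to 0.096 for RPE and -0.0031 to 0.15 for TALDO1.

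Whether the replicate numbers pair the samples was not settled. Deviations of same-numbered libraries from their group means correlated at -0.021, 0.0047 and 0.21 over 10585 genes, in order of replicate number. Differently numbered libraries correlated at -0.168 to 0.158, so the value for replicate 3 was the highest of all pairs. With the replicate block 3 genes were called in all, 0 of them members, the members' median was -0.049 and the unadjusted edgeR p of PFKL was 0.0134, against 0.0273 for SLC2A1 and 0.0526 for PDK1. Depth limits SLC16A3, ENO3 and ALDOC most.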
